A study of Homo sapiens with 17 samples.

Results

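The 42 genes described here were listed as members of a class of enzymes outside the KDM6 and TET families. The class uses iron(II), oxygen and 2-oxoglutarate, with ascorbate (vitamin C) as a cofactor. The members were taken from a list of gene names, and the activity of each and its need for ascorbate were not examined. They are 14 histone lysine demethylases with a JmjC domain, 4 related protein hydroxylases, 6 nucleic acid demethylases of the ALKBH and FTO families, 9 collagen hydroxylases, 5 hydroxylases that act on or near hypoxia-inducible factor (HIF), and 4 others. All 42 were matched among the 58302 gene identifiers of the count tables and 40 among the 28285 identifiers of the sorted-cell tables, where RIOX1 and P3H3 are not listed. Expression was measured by RNA sequencing in 17 libraries of cells of the established embryonic stem cell line H1 that had been driven toward endothelium and selected for eGFP, a reporter of GATA2, which encodes a transcription factor of the endothelium that forms blood. Endothelial cells had been derived without vitamin C (Vc-) or with it (Vc+). Sorted endothelial cells gave 2 libraries per condition. A time course of the cells after re-plating gave 1 library per condition at each of 0, 24, 36, 48 and 60 h; its 0 h libraries hold endothelial cells and the later ones a mixture of endothelial and hematopoietic cells. The Vc+ condition also gave 1 library of adherent cells at 60 h, a mixture by its label, and 1 each of suspended hematopoietic cells at 60 and 96 h. The labels do not say whether vitamin C was given after re-plating, at what dose, or whether libraries came from separate cultures. In the sorted cells p-values thus measure the spread within each pair of libraries, which may be technical. The course has no replicates. Its p-values for vitamin C rest on how the gap between conditions varied among the times, and those for time include differences among times. Each condition of the course may be 1 derivation, so these p-values cannot be taken to cover variation between derivations.

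Enzymes of this class split oxygen between 2-oxoglutarate and their substrate, and ascorbate returns their iron to the reduced state when it has been oxidised. Their substrates differ widely. Collagen prolyl and lysyl hydroxylases modify procollagen chains in the endoplasmic reticulum, where hydroxyproline stabilises the triple helix and hydroxylysine forms the crosslinks of the mature fibre. EGLN proteins hydroxylate HIF alpha subunits so that they are degraded when oxygen is present, and EGLN1 and EGLN3 are themselves transcribed in response to HIF. JmjC demethylases remove methyl groups from lysines of histone H3, and ALKBH and FTO enzymes remove them from DNA or RNA. Transcript levels say nothing on the activity of these enzymes, which is where ascorbate acts.

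The promoters of 5 members that passed a test of change with time are printed: EGLN1 and EGLN3, known HIF targets that were higher after re-plating, and PLOD1, PLOD2 and KDM4B, which rose from 24 to 60 h. Of the 4 members that passed for vitamin C, EGLN3 alone is among them. The 250 bases before the RefSeq transcription start (GRCh38.p14) are given 5′ to 3′ on the gene's strand, and 37 of the 42 members had such an entry. Capitals mark ACGTG or GCGTG, the letters of the core that HIF binds, on either strand, so that CACGT and CACGC on the printed strand also count; ACGTG overlaps the E-box CACGTG.
EGLN1 (chr1:231422288-231422537, minus strand): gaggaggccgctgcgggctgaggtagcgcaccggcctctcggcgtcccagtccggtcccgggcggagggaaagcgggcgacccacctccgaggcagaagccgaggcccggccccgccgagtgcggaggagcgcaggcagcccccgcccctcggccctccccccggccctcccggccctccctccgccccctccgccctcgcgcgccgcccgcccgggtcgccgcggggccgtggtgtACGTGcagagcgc
EGLN3 (chr14:33951075-33951324, minus strand): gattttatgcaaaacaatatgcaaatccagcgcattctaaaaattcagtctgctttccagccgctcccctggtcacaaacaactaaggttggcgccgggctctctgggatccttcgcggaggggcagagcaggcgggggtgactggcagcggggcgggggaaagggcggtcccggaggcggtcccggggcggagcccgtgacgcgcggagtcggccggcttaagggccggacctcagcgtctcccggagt
PLOD1 (chr1:11934467-11934716, plus strand): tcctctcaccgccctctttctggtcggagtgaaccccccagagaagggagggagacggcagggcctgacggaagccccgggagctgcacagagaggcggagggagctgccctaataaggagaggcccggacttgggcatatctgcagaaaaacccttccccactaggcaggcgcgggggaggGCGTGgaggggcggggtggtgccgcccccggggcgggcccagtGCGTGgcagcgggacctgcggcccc
PLOD2 (chr3:146161185-146161434, minus strand): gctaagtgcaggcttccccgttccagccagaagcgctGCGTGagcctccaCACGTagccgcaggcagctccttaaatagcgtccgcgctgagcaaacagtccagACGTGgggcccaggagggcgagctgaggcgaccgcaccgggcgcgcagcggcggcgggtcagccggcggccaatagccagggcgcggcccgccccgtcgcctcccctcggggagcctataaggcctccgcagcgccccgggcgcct
KDM4B (chr19:4968863-4969112, plus strand): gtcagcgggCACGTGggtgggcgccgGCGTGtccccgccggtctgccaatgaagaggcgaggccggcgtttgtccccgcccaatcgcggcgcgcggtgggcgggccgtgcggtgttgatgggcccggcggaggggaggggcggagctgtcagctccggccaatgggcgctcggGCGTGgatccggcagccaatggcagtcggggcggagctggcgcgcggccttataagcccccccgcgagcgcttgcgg

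The EGLN1 window held 1 match, 13 bases before the start, and the EGLN3 window held none. PLOD1 had 2 matches, the nearest 25 bases before the start. PLOD2 had 3, between 146 and 213 bases before it, and KDM4B had 4, between 77 and 241 bases, with CACGTG read on both strands. Across members, 23 of the 37 matched genes had ACGTG or GCGTG in at least 1 entry, and 29 of their 50 promoter entries (58.0%) did, beside 43.2% of all 35116 promoters of the same length. ACGTG was in 10 of the members' 50 entries beside 18.5% of all promoters, and GCGTG in 46.0% beside 32.2%. The match of letters is a description and not a binding site.

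The 13 count libraries held 6214675 to 11058345 counts, so that 1 count was worth 0.0904 to 0.161 CPM (counts scaled to a common library total), and the members together took 0.206 to 0.313% of each library. Every CPM value uses the library's own total count. Every library of the course held the 10 endothelial markers at a summed 6956 to 9734 CPM. The 12 blood markers summed to 109 to 590 CPM, with 0 to 2 of them at 0 in a library. Among these, PTPRC (CD45) was at 0 in all 5 Vc- libraries and at 0.293 CPM or less in the Vc+ ones. It does not stand for the list, of which 9 of 11 tested were higher with vitamin C. The 6 pluripotency markers summed to 246 to 981 CPM, with 1 to 3 of them at 0; POU5F1 and NANOG were at 0 in 9 and 8 of the 10 course libraries, and LIN28A, DNMT3B and DPPA4 made up nearly all of the sum. Mitochondrial genes took 4.15 to 6.08% of the counts of a course library.

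Levels between genes can be compared only per unit of length, which the values of the 4 sorted libraries allow (TPM, transcript abundance scaled by length and library). Collagen enzymes led. P3H1, a prolyl 3-hydroxylase of fibrillar collagen, was at 289 to 324 TPM in the 4 libraries and PLOD1, a lysyl hydroxylase of the helix, at 202 to 352 TPM. Their ranges overlapped. EGLN2, an oxygen-sensing HIF prolyl hydroxylase, followed at 116 to 148 TPM, above its paralogs EGLN1 at 16.3 to 50.6 TPM and EGLN3 at 5.55 to 10.8 TPM. PLOD3, P4HA1 and P4HA2 lay between 53.55 and 119 TPM, and their ranges overlapped. Among histone demethylases KDM5B, which acts on H3K4, stood at 72.2 to 129 TPM and JMJD1C at 84.8 to 102 TPM, whereas KDM4C, which acts on H3K9, stood at 7.01 to 10.4 TPM. Of the RNA demethylases, ALKBH5 was the most even, at 73.6 to 78.4 TPM, and FTO lay at 33.9 to 58.7 TPM. P4HA3, an alternative catalytic subunit of prolyl 4-hydroxylase, was lowest, at 0.09 to 0.50 TPM.

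**Figure D1:**
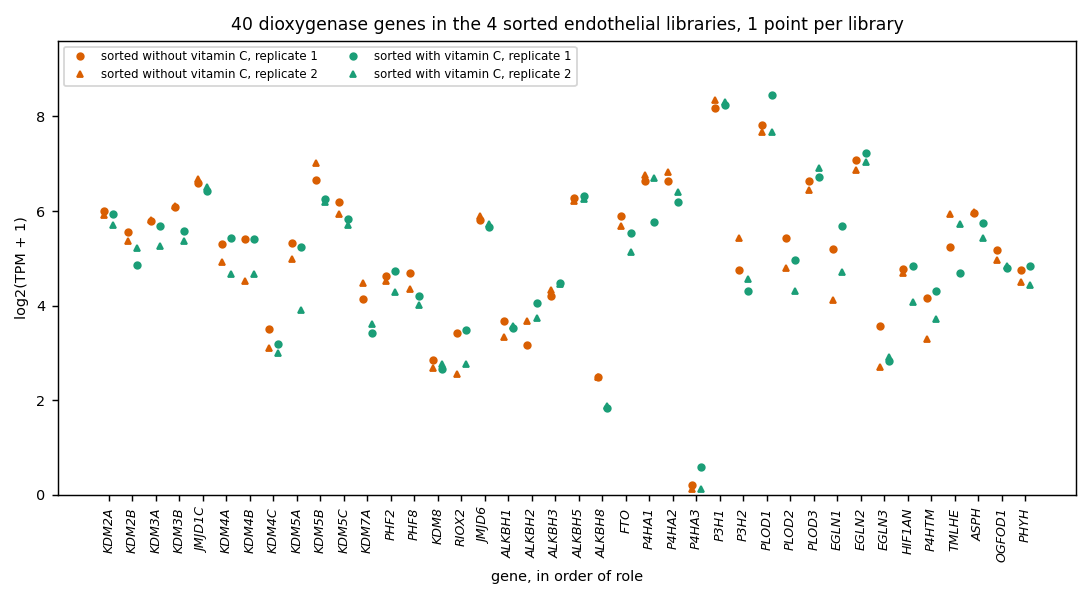
Levels of the 40 listed dioxygenase genes in the sorted endothelial libraries, as log2(TPM + 1) on the vertical axis and genes in order of role on the horizontal axis, with 1 point per library coloured by condition. P3H1 and PLOD1 lie highest and P4HA3 lies near 0.

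The order within a family was not the same in the count tables for every gene. EGLN2 held 14.5 to 24.7 CPM in the course, below EGLN1 at 37.7 to 97.4 CPM, although it stood above EGLN1 per length in the sorted cells. Of the exonic bases of EGLN2, 30.6% are shared with the read-through gene RAB4B-EGLN2, and how reads in shared bases were counted is not given in the sources used here. KDM4A shares 48.5% of its exonic bases with another annotated gene, RIOX2 27.6% with CRYBG3, KDM8 14.5% and ALKBH5 11.2%, so that counts of these genes are uncertain too.

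**Figure D2:**
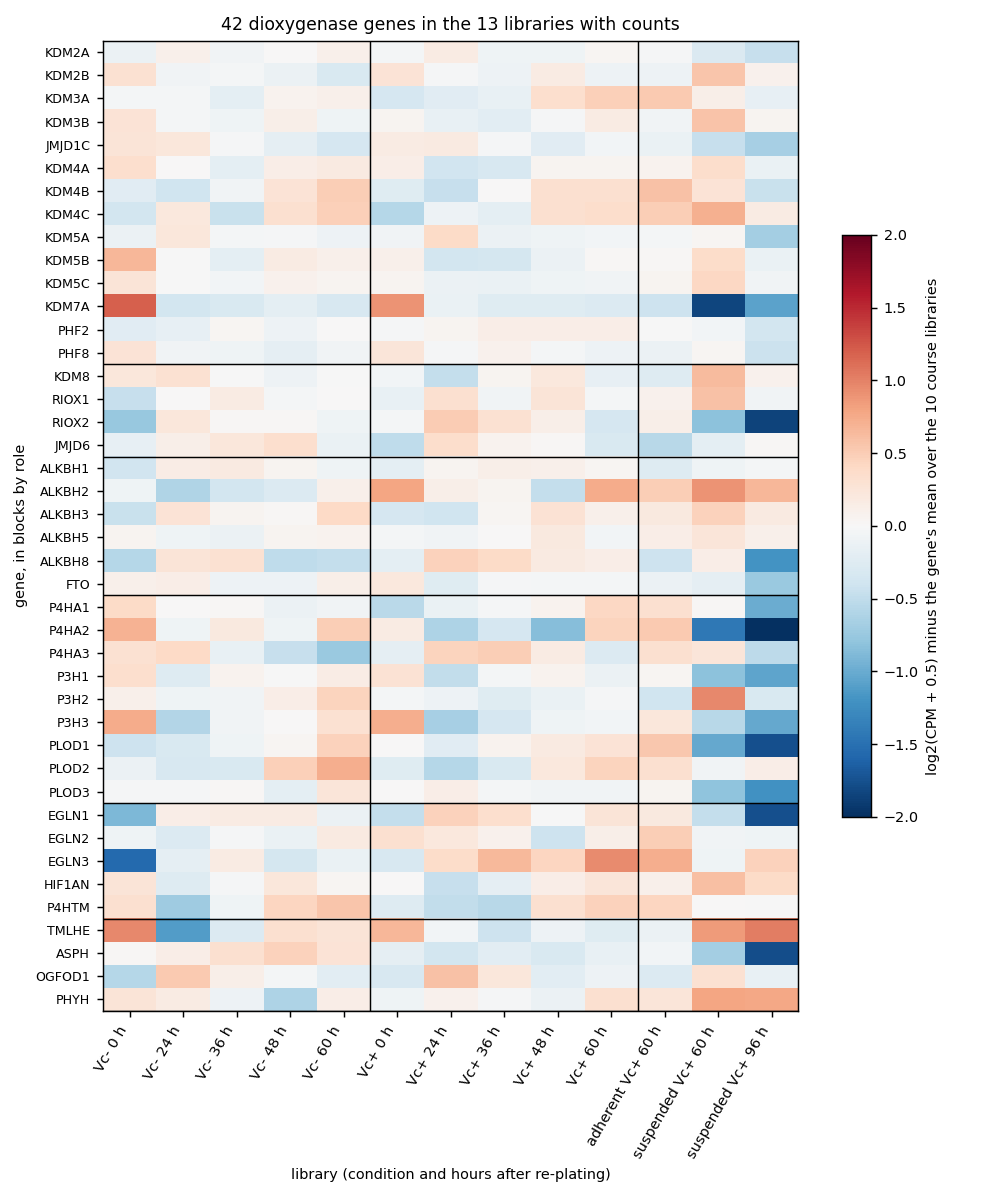
Log2 CPM of each of the 42 genes in the 13 count libraries, less the gene's mean over the 10 course libraries, with genes in blocks by role from top to bottom and libraries from left to right; the colour scale ends at 2 in each direction. In the 0 h libraries KDM7A lies above its mean and EGLN1 and EGLN3 lie below theirs, and in the suspended cells P4HA2 and PLOD1 lie below theirs.

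With vitamin C, transcripts of the oxygen sensor EGLN3 were higher throughout the course, and those of ASPH, P4HA2 and KDM5B were lower. The gaps of P4HA2 and KDM5B were small at 60 h (log2 ratios of -0.05 and -0.08). Most of the class differed little. Of the 42 members, 4 passed the test for vitamin C over the 10 course libraries (edgeR quasi-likelihood test with time as a factor, adjusted p under 0.05), 1 higher and 3 lower, beside 6.25% of the 14773 genes tested (2.52% higher and 3.73% lower). The members' median difference was -0.02 on the log2 scale, near the median over all genes of -0.0002. An unadjusted p under 0.05 was found for 12 of the 42 members and for 2818 of the 14773 genes.

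EGLN3 (ENSG00000129521, chr14:33924231-34462774, GRCh38), a HIF prolyl hydroxylase that is itself induced by HIF and whose promoter is printed above, stood at 4.91, 13.5, 17.3, 11.9 and 14.0 CPM without vitamin C at 0, 24, 36, 48 and 60 h. With vitamin C it stood at 12.2, 19.95, 24.5, 20.8 and 30.2 CPM. The Vc+ library was the higher at each of the 5 times, although the ranges of the conditions overlapped because both started low at 0 h. The fitted log2 difference was 0.82 ± 0.14 (SE, 5 libraries per condition; edgeR adjusted p = 0.00526). The other HIF hydroxylases did not pass. EGLN1, the main HIF prolyl hydroxylase, had an estimate of 0.22 ± 0.09, EGLN2 of 0.13 ± 0.13, the asparaginyl hydroxylase HIF1AN of -0.12 ± 0.08 and the membrane-bound P4HTM of -0.24 ± 0.15.

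ASPH (ENSG00000198363, chr8:61500556-61714640), which hydroxylates aspartate and asparagine in EGF-like domains of proteins such as Notch ligands, was lower with vitamin C at every time. Its conditions did not overlap, and the share of all genes without overlap was not counted. Without vitamin C ASPH stood at 119, 128, 145, 161 and 141 CPM at the 5 times in order, and with vitamin C at 103, 90.1, 100.2, 94.4 and 106 CPM. Its log2 difference was -0.50 ± 0.08 (edgeR adjusted p = 0.00358).

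P4HA2 (ENSG00000072682, chr5:132191838-132295315), a catalytic subunit of the prolyl 4-hydroxylase of collagen, stood at 49.4, 28.4, 34.7, 28.4 and 42.9 CPM without vitamin C and at 33.9, 19.5, 23.9, 16.5 and 41.4 CPM with it. The Vc+ value was lower at each time, least so at 60 h. The log2 difference was -0.49 ± 0.11 (edgeR adjusted p = 0.0192). KDM5B (ENSG00000117139, chr1:202724495-202809470), an H3K4 demethylase, stood at 303, 190.0, 167, 215 and 206 CPM without vitamin C and at 206, 149, 150.1, 177 and 194 CPM with it, a log2 difference of -0.30 ± 0.07 (edgeR adjusted p = 0.0346). It too was lower with vitamin C at each time, with the widest gap at 0 h.

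**Figure D3:**
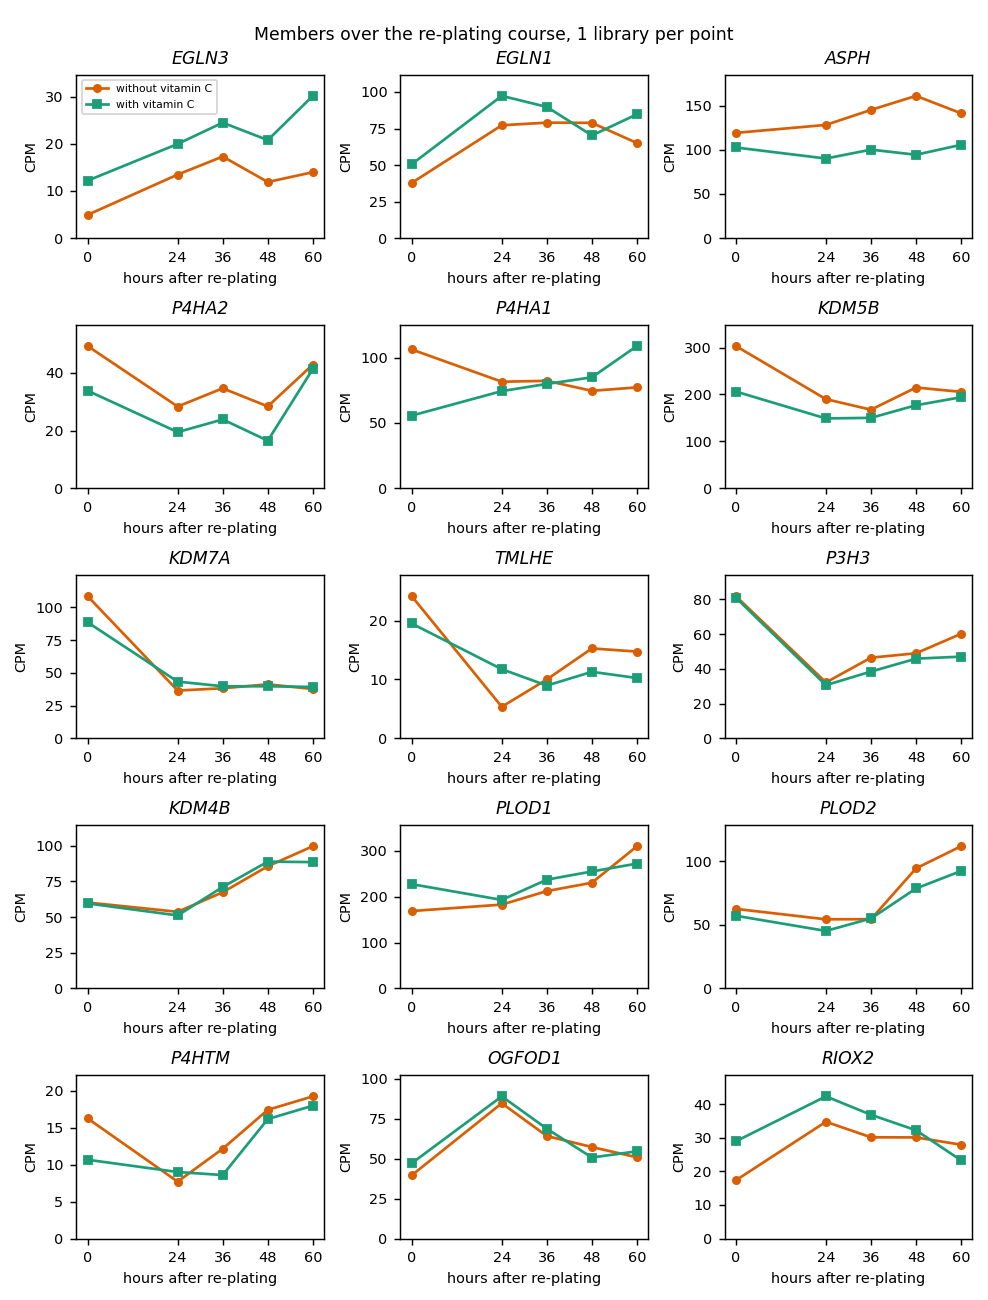
CPM of 14 members that passed a test, and of P4HA1, against hours after re-plating, for the libraries without and with vitamin C; each point is 1 library and each vertical axis starts at 0. EGLN3 lies higher with vitamin C at every time, and ASPH, P4HA2 and KDM5B lie lower, P4HA2 barely so at 60 h.

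Among the remaining collagen enzymes, 6 of 8 had negative estimates, and none of the 8 passed. PLOD2, which hydroxylates the telopeptides of collagen, had an estimate of -0.20 ± 0.08 (adjusted p = 0.170), and P3H2, the prolyl 3-hydroxylase of basement membrane collagen, of -0.23 ± 0.09 (adjusted p = 0.164). None of the 6 ALKBH and FTO genes passed, of which ALKBH2, a DNA repair demethylase, had the widest estimate. It stood at 4.14, 2.74, 3.30, 3.55 and 4.78 CPM without vitamin C and at 8.04, 4.83, 4.604, 3.05 and 7.76 CPM with it (0.56 ± 0.24, adjusted p = 0.219), so that the conditions overlapped. ALKBH8, which modifies the wobble base of transfer RNA, stood at 9.31, 17.0, 17.5, 9.72 and 9.96 CPM without and at 12.2, 19.6, 18.5, 16.0 and 15.5 CPM with vitamin C (0.38 ± 0.14, adjusted p = 0.152). The 13 JmjC demethylases other than KDM5B had estimates between -0.20 and 0.16, and the 4 protein hydroxylases between -0.20 and 0.22, all short of the threshold.

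Genes around these enzymes were examined in lists. Of 14 partners in collagen modification, 3 fell with vitamin C and none rose: the crosslinking oxidase LOX (-1.72 ± 0.12), its paralog LOXL4 (-1.25 ± 0.31) and the chaperone FKBP10 (-0.26 ± 0.07). Of 17 tested HIF factors and targets, 3 fell and none rose, namely the glucose transporter SLC2A1 (-0.57 ± 0.08), HIF3A (-0.48 ± 0.08) and PFKFB3 (-0.52 ± 0.11), while EGLN3 was higher. Of 18 histone methyltransferases, the H3K4 enzymes KMT2D (0.26 ± 0.06) and KMT2A (0.30 ± 0.08) were higher. None of 16 writers and readers of m6A, the RNA mark that FTO and ALKBH5 remove, passed, nor any of 13 further 2-oxoglutarate oxygenases.

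Markers of other cell types moved with the conditions. The summed mesenchymal markers were 922 to 2073 CPM without and 518 to 2238 CPM with vitamin C, and 6 of 9 tested were lower with it. Epithelial markers summed to 1057 to 1171 CPM without and 485 to 524 CPM with vitamin C, and blood markers to 109 to 193 and 194 to 590 CPM, 9 of 11 higher. Their part in the differences of EGLN3, ASPH, P4HA2 and KDM5B was not tested, and in these bulk samples fewer cells of a type cannot be told apart from less RNA per cell. EGLN3 and ASPH passed whichever library was left out. The call of P4HA2 ended without the 24, 36 or 48 h library of either condition (adjusted p = 0.0701 to 0.0890) and that of KDM5B without the 0, 24, 36 or 48 h library of either (adjusted p = 0.0612 to 0.126); all 4 calls ended with no term for time (adjusted p = 0.102 to 0.999).

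After re-plating, the HIF prolyl hydroxylases EGLN1 and EGLN3 were higher than at 0 h, and KDM7A, P3H3, KDM5B, TMLHE and KDM2B were lower. In the comparison of the 8 libraries of 24 to 60 h with the 2 at 0 h (edgeR, condition as a factor), 7 members passed, 2 higher and 5 lower, beside 20.6% of the 14773 genes tested (10.2% higher and 10.4% lower). The members' median was 0.02 and that of all genes 0.01.

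KDM7A (ENSG00000006459, chr7:140084746-140177035), a demethylase of H3K9 and H3K27 with a PHD finger, fell most. It stood at 109 CPM at 0 h without vitamin C and at 88.6 CPM with it. From 24 to 60 h it stood at 36.5, 38.2, 41.2 and 37.6 CPM without vitamin C and at 43.3, 39.7, 39.7 and 39.2 CPM with it. Both 0 h values lay above every later one, and the later values were level (log2 difference -1.31 ± 0.10, edgeR adjusted p = 1.89e-05).

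EGLN1 (ENSG00000135766, chr1:231363751-231425044) rose in both conditions. It went from 37.7 CPM at 0 h to 77.2, 79.0, 78.9 and 65.0 CPM without vitamin C, and from 50.5 to 97.4, 89.8, 70.3 and 84.7 CPM with it. The 0 h values lay below all later values, and the log2 difference was 0.89 ± 0.15 (edgeR adjusted p = 0.00174). EGLN3, whose values are given above, rose by 1.23 ± 0.24 (adjusted p = 0.00418). EGLN2 (-0.13 ± 0.19), HIF1AN (-0.14 ± 0.17) and P4HTM (0.03 ± 0.35) did not pass.

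The HIF factors and targets summed to 1246 and 1107 CPM at 0 h and to 1645 to 1986 CPM later. Of 17 tested, 4 rose and 1 fell, with EPAS1 (HIF2A) up by 3.27 ± 0.42, the peptide hormone ADM up by 2.21 ± 0.28 and SLC2A1 up by 1.78 ± 0.18. These are listed beside EGLN1 and EGLN3 because they belong to the same oxygen-sensing system, and a shared source of the changes was not tested.

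P3H3, a prolyl 3-hydroxylase homologue that works with lysyl hydroxylase, stood at 81.8 and 80.9 CPM at 0 h without and with vitamin C. It was at 32.1, 46.4, 48.9 and 60.1 CPM later without vitamin C and at 30.6, 38.4, 45.8 and 47.0 CPM with it (-0.89 ± 0.19, edgeR adjusted p = 0.00833). The fall was steepest at 24 h and part of the level was back by 60 h. Of the 14 collagen partners 1 rose and 6 fell, among them FKBP10 (-0.74 ± 0.11), the prolyl isomerase PPIB (-0.73 ± 0.12) and CRTAP (-0.78 ± 0.13), which forms a complex with P3H1 and PPIB. P3H1 itself had an estimate of -0.37 ± 0.14 (adjusted p = 0.0869).

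TMLHE, the first enzyme of carnitine synthesis, stood at 24.2 and 19.5 CPM at 0 h. Later it stood at 5.36, 10.01, 15.3 and 14.7 CPM without vitamin C and at 11.7, 8.96, 11.3 and 10.2 CPM with it (-0.98 ± 0.28, edgeR adjusted p = 0.0316). KDM5B (-0.47 ± 0.12, adjusted p = 0.0228), whose values are given above, was highest at 0 h in both conditions. KDM2B, an H3K36 demethylase that recruits Polycomb complexes to CpG islands, stood at 82.1 and 79.6 CPM at 0 h. Later it stood at 63.1, 64.2, 61.0 and 53.5 CPM without and at 64.8, 61.3, 74.2 and 61.5 CPM with vitamin C (-0.35 ± 0.11, adjusted p = 0.0445). In these 2 demethylases, as in TMLHE, the 0 h libraries were the highest within their condition. KDM4C had the widest positive estimate of the demethylases: 12.3 and 10.6 CPM at 0 h, then 18.6, 11.5, 19.9 and 22.4 CPM without and 14.8, 13.8, 20.01 and 20.3 CPM with vitamin C (0.64 ± 0.25, adjusted p = 0.0903). KDM1A, the flavin-dependent demethylase of H3K4 that needs no ascorbate, had a log2 difference of -0.58 ± 0.09 and passed.

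With 2 libraries at 0 h, these calls rest on few values. The call of KDM2B was lost in 10 of 14 alternative settings and that of TMLHE in 4 of 14. KDM7A kept its call in all 14. Without the Vc- library of 0 h, 1 member (KDM7A) and 813 genes passed, and without the Vc+ library of 0 h 4 members (KDM7A, KDM5B, EGLN1 and EGLN3) and 1287 genes. In the 24 h libraries alone against 0 h, 14 of the 42 members passed, beside 28.6% of 15250 genes: 6 of the 7 and also KDM5A, RIOX2, JMJD6, ALKBH8, P4HA2, P3H1, HIF1AN and OGFOD1. Summed pluripotency markers were 981 and 935 CPM at 0 h and 246 to 428 CPM later, summed mesenchymal markers 2073 and 2238 CPM at 0 h and 518 to 1696 CPM later; the part of cell make-up in the changes of KDM7A, EGLN1, EGLN3, P3H3 and TMLHE was not tested.

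**Figure D4:**
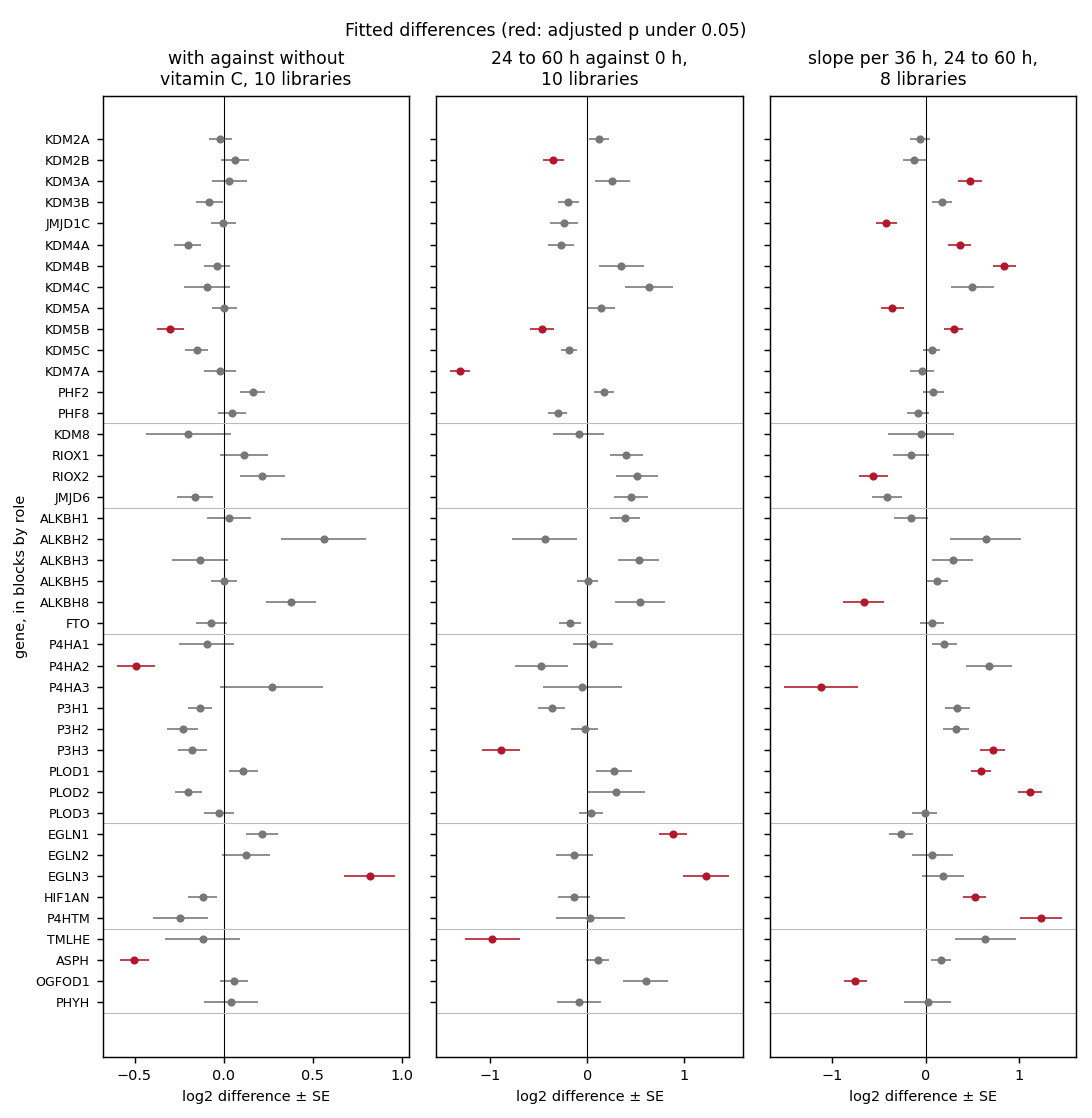
Fitted log2 difference with its SE for the 42 genes, in blocks by role, for vitamin C, for 24 to 60 h against 0 h and for the slope from 24 to 60 h; red marks an adjusted p under 0.05. The red points number 4, 7 and 15, and the collagen and HIF blocks hold the widest positive slopes.

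From 24 to 60 h, the lysyl hydroxylases PLOD1 and PLOD2, the prolyl 3-hydroxylase homologue P3H3, the HIF-related P4HTM and HIF1AN and 4 histone demethylases rose. The slopes were fitted over 8 libraries with condition as a factor and scaled to the 36 h between the first and last of them. In this fit 15 members passed, 9 upward and 6 downward, beside 30.2% of the 14612 genes tested (15.7% upward and 14.6% downward), so many genes outside the class moved as well. The members' median slope was 0.10 and that of all genes 0.01.

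PLOD2 (ENSG00000152952, chr3:146069440-146163653), whose product makes the telopeptide hydroxylysines of stable collagen crosslinks, stood at 54.4, 54.5, 94.4 and 112 CPM at 24, 36, 48 and 60 h without vitamin C and at 45.2, 55.0, 78.7 and 92.4 CPM with it. In both conditions the 48 and 60 h libraries lay above the 24 and 36 h ones, and the slope was 1.12 ± 0.13 (edgeR adjusted p = 2.20e-05). PLOD1 (ENSG00000083444, chr1:11934205-11975538) went through 183, 212, 230.4 and 309.9 CPM without vitamin C and 193, 237, 255 and 272 CPM with it, a slope of 0.59 ± 0.11 (adjusted p = 0.000767). Each step was upward in both conditions. P3H3 rose by 0.71 ± 0.14 (adjusted p = 0.00124) from its low values at 24 h. PLOD3, which also adds glucose to hydroxylysine, had a slope of -0.01 ± 0.13. P4HA3 fell by 1.12 ± 0.39 (adjusted p = 0.0436), from 4.05 to 1.55 CPM without vitamin C and from 4.18 to 2.34 CPM with it, by way of 2.62 and 2.01 CPM in the former and 4.36 and 3.36 CPM in the latter. Of the collagen partners, 4 of 14 rose and 1 fell, LOX (0.99 ± 0.17), LOXL1 (0.76 ± 0.13) and P3H4 (0.63 ± 0.13) being the 3 with the smallest p.

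In the HIF group, P4HTM stood at 7.71, 12.2, 17.4 and 19.3 CPM without vitamin C and at 9.01, 8.601, 16.2 and 18.0 CPM with it, and HIF1AN at 62.6, 73.7, 88.0 and 77.3 CPM and at 54.4, 66.1, 82.0 and 88.4 CPM. The slope was 1.23 ± 0.23 for P4HTM (edgeR adjusted p = 0.000910) and 0.52 ± 0.13 for HIF1AN (adjusted p = 0.00642). Both were lowest at 24 or 36 h. The 3 EGLN genes did not pass, with slopes of -0.26 ± 0.13 for EGLN1, 0.07 ± 0.22 for EGLN2 and 0.18 ± 0.22 for EGLN3. Of 16 HIF factors and targets tested, 7 rose and 2 fell, with DDIT4 up by 2.54 ± 0.21, HIF3A by 1.42 ± 0.19 and VEGFA by 1.85 ± 0.27.

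Among the histone demethylases 4 rose and 2 fell. KDM4B (ENSG00000127663, chr19:4969113-5153595), an H3K9 demethylase known to be induced by hypoxia, stood at 53.7, 67.4, 85.6 and 99.7 CPM without vitamin C and at 51.2, 71.1, 88.9 and 88.6 CPM with it (0.84 ± 0.12, edgeR adjusted p = 0.000158). KDM3A, an H3K9 demethylase also known as a HIF target, stood at 88.8, 80.4, 96.3 and 98.4 CPM and at 78.4, 83.1, 116 and 128 CPM (0.48 ± 0.13, adjusted p = 0.0123). KDM4A stood at 65.6, 56.7, 71.4 and 74.2 CPM without and at 50.04, 51.9, 67.4 and 67.8 CPM with vitamin C (0.36 ± 0.12, adjusted p = 0.0351). These 3 and KDM5B (0.30 ± 0.10, adjusted p = 0.0419) were higher at 48 and 60 h than at 24 and 36 h in each condition, with KDM5B at its lowest at 36 h without vitamin C.

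The 2 that fell were JMJD1C, a KDM3 homologue, and KDM5A, an H3K4 demethylase. JMJD1C stood at 195, 163, 147 and 132 CPM without vitamin C and at 187, 164, 141 and 159.8 CPM with it (-0.42 ± 0.11, edgeR adjusted p = 0.00930). KDM5A stood at 103, 85.5, 86.7 and 82.0 CPM and at 114, 80.7, 82.8 and 84.2 CPM (-0.36 ± 0.12, adjusted p = 0.0368), so that its 24 h libraries were high and the others level. Of the 18 methyltransferases tested none rose and 5 fell, among them KMT5A (-0.80 ± 0.12), NSD2 (-0.68 ± 0.12) and SUV39H1 (-0.90 ± 0.22).

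OGFOD1, which hydroxylates a proline of the ribosomal protein uS12, fell from 84.7 through 64.1 and 57.3 to 50.8 CPM without vitamin C. With vitamin C it stood at 89.0, 68.7, 50.7 and 54.6 CPM (-0.75 ± 0.12, edgeR adjusted p = 0.000446). RIOX2, a histidyl hydroxylase of ribosomal protein, stood at 34.8, 30.1, 30.1 and 27.9 CPM and at 42.3, 36.8, 32.2 and 23.3 CPM (-0.56 ± 0.15, adjusted p = 0.0127). These 2 enzymes of the ribosome were highest at 24 h in both conditions, after lower values at 0 h of 39.6 and 47.1 CPM for OGFOD1 and 17.3 and 28.9 CPM for RIOX2. ALKBH8, whose values are given above, had a slope of -0.66 ± 0.22 (adjusted p = 0.0351). FTO (0.07 ± 0.12) and ALKBH5 (0.12 ± 0.11) did not pass, and of 16 writers and readers of m6A METTL16 alone did (-0.56 ± 0.13).

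Whichever 1 library was left out, PLOD1, PLOD2, KDM4B, P3H3, P4HTM and OGFOD1 passed; 10 to 15 members did so in all. KDM3A, KDM4A, KDM5A, KDM5B, JMJD1C, RIOX2, ALKBH8, P4HA3 and HIF1AN each lost the call without at least 1 library. When the 0 h libraries were added to a single line 6 members passed, of which KDM4C and KDM7A were newly called. Only 4 of the 15 kept their call there (PLOD1, PLOD2, KDM4B and JMJD1C), and the 11 lost include P3H3, P4HTM and OGFOD1. Blood markers rose over these hours (8 of 11 tested), as did 6 of 9 mesenchymal markers, and the mitochondrial share of counts went from 4.31 to 5.10% without and from 4.15 to 5.86% with vitamin C; their part in the members' slopes was not tested.

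No member's slope was shown to differ between the conditions. In the test of the difference in slope, 0 of 42 members and 0.0% of 14612 genes passed in edgeR; at an unadjusted p under 0.05 there were 3 members and 731 genes, and DESeq2 called 8 genes and no member. On simulated data this test found none of the smaller and few of the larger differences put in, so that it says little of differences of the size seen elsewhere in the course. The 3 members were TMLHE (-1.54 ± 0.53), P4HA1 (0.61 ± 0.23) and KDM3A (0.54 ± 0.23), with edgeR adjusted p of 0.783, 0.872 and 0.982. TMLHE went from 5.36 to 14.7 CPM between 24 and 60 h without vitamin C and from 11.7 to 10.2 CPM with it. P4HA1, the main catalytic subunit of prolyl 4-hydroxylase, stood at 81.5, 82.2, 74.5 and 77.2 CPM without and at 74.3, 79.8, 84.9 and 109 CPM with vitamin C. Wide estimates short of the threshold were also seen for EGLN2 (-0.61 ± 0.42), RIOX2 (-0.57 ± 0.28), EGLN3 (0.57 ± 0.44) and ALKBH8 (0.55 ± 0.43). EGLN2 stood at 16.2, 19.3, 17.7 and 22.2 CPM without vitamin C and at 22.7, 20.8, 14.5 and 21.4 CPM with it, and the 2 series crossed.

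In the sorted endothelium, before any re-plating, no member passed the test for vitamin C. On simulated data this test recovered 3% of the log2 changes of 1 put in and 95% of those of 3. It therefore says little of differences as small as the members' estimates, which lay between -0.79 and 0.54. The titles of the 4 libraries give 2 per condition, but the descriptions contradict them for 2 of the 4; the titles were used. Of 39 members tested (P4HA3 fell under the minimum of 1 TPM in 2 libraries), none passed, beside 0.0% of 14421 genes in limma on log2(TPM + 1); 313 genes and no member had an unadjusted p under 0.05. The members' median difference was -0.21 and that of all genes -0.09, and 27 members were negative and 12 positive. With the descriptions' grouping 156 genes and no member passed, and the estimates of 18 of the 39 members changed sign, so that the directions below hold for the titles.

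Of the 14 JmjC demethylases 13 had negative estimates, with a median of -0.32 beside -0.09 for all genes. Other lists had medians of -0.40 (histone methyltransferases), -0.30 (m6A factors) and 0.14 (further 2-oxoglutarate oxygenases). How many of all genes were negative was not counted. The widest negative estimate was that of KDM7A, at 16.6 and 21.2 TPM without vitamin C and 9.69 and 11.2 TPM with it (-0.79 ± 0.35, limma adjusted p = 1.00). The conditions did not overlap for KDM7A, but each holds 2 libraries and the share of all genes without overlap was not counted. KDM3B, an H3K9 demethylase, stood at 67.4 and 68.0 TPM in the Vc- and 47.0 and 40.2 TPM in the Vc+ libraries (-0.63 ± 0.25). Of the collagen enzymes P3H2 stood at 26.1 and 42.1 TPM in the Vc- and 18.7 and 22.7 TPM in the Vc+ libraries (-0.66 ± 0.36), again without overlap. These differences, on the scale of log2(TPM + 1), did not pass, and with the descriptions' groups those of KDM7A (0.27 ± 0.40) and P3H2 (0.47 ± 0.35) turned positive.

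The widest positive estimates were those of EGLN1, ALKBH2 and PLOD1. EGLN1 stood at 35.9 and 16.3 TPM in the Vc- and 50.6 and 25.1 TPM in the Vc+ libraries (0.54 ± 0.52), ALKBH2 at 7.98 and 11.7 against 15.7 and 12.4 TPM (0.49 ± 0.38) and PLOD1 at 226 and 202 against 352 and 203 TPM (0.32 ± 0.33). The replicates of EGLN1 lay further apart within each condition than the means of the conditions did, and with the descriptions' groups its estimate was -1.04 ± 0.31 and that of PLOD1 -0.47 ± 0.25. The 4 genes called over the course stood as follows: ASPH at 60.8 and 62.2 against 52.7 and 42.4 TPM (-0.37 ± 0.26), P4HA2 at 98.2 and 112 against 71.7 and 83.6 TPM (-0.43 ± 0.24), KDM5B at 100.2 and 129 against 75.2 and 72.2 TPM (-0.62 ± 0.25), and EGLN3 at 10.8 and 5.55 against 6.07 and 6.53 TPM (-0.27 ± 0.45). By the titles ASPH, P4HA2 and KDM5B were lower in both Vc+ libraries and EGLN3 was not higher. None of the 4 passed. Each condition holds 2 libraries, the median over all genes was -0.09, and the share of all genes lower in both Vc+ libraries was not counted. With the descriptions' groups the estimates of P4HA2 (0.20 ± 0.26) and KDM5B (0.15 ± 0.32) turned positive, while those of ASPH (-0.14 ± 0.27) and EGLN3 (-0.38 ± 0.37) stayed negative. Mesenchymal markers summed to 2039 and 1455 TPM in the Vc- and 1320 and 1035 TPM in the Vc+ libraries, and their part was not tested.

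At 60 h, suspended hematopoietic cells had more P3H2 and less P4HA2, PLOD1 and KDM7A than the adherent cells, both of the Vc+ condition. Each is 1 library, so the differences have no replicate check, and intervals are exact Poisson intervals at 95% that cover counting error only. Of the 41 members that reached 5 CPM in either library, 1 was at least 2-fold higher and 3 at least 2-fold lower in suspended cells, beside 12.3% and 14.6% of 12705 genes. The median log2 ratio was 0.08 for members and 0.14 for all genes.

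The collagen enzymes P4HA2 and PLOD1 had the widest ratios, followed by KDM7A and P3H2. P3H2 stood at 86.5 CPM (79.8 to 93.7) in suspended and 33.4 CPM (29.5 to 37.6) in adherent cells, a 2.57-fold difference. P4HA2 stood at 10.9 CPM (8.61 to 13.7) in suspended and 43.5 CPM (39.1 to 48.3) in adherent cells, which is 3.85-fold lower. PLOD1 stood at 110.1 CPM (102 to 118) against 326 CPM (314 to 339), or 2.95-fold lower. P3H2 was thus high in the cells where the other 2 were low. The prolyl 4-hydroxylase subunit P4HA1 (-0.30), P3H1 (-0.85), P3H3 (-0.77), PLOD2 (-0.40) and PLOD3 (-0.86) had negative log2 ratios short of 2-fold. Of 12 collagen partners none was 2-fold higher and 2 were lower.

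KDM7A stood at 12.9 CPM (10.4 to 15.9) in suspended and 35.2 CPM (31.3 to 39.6) in adherent cells, 2.66-fold lower. The suspended value also lay below every library of the course. TMLHE stood at 22.3 CPM (18.9 to 26.1) against 11.2 CPM (9.03 to 13.8) and KDM2B at 97.2 against 61.7 CPM, log2 ratios of 0.96 and 0.65. Of the HIF hydroxylases EGLN1 had a log2 ratio of -0.68 (50.6 against 81.4 CPM) and EGLN3 of -0.80 (14.5 against 25.6 CPM), whereas HIF1AN had 0.51 (114 against 80.3 CPM). Of 16 HIF factors and targets, 1 was 2-fold higher and 4 were lower.

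The suspended library differed from the adherent one in cell type as labelled: all 10 endothelial markers were at least 2-fold lower, at a summed 2000 against 9869 CPM, and all 11 blood markers with 5 CPM or more were higher, at 2613 against 196 CPM for the list. Mesenchymal markers summed to 259 and 679 CPM, and mitochondrial genes took 7.44 and 5.80% of counts; the part of these in the members' ratios was not tested. No member reached 2-fold between the adherent library and the Vc+ course library of 60 h. These 2 libraries are not replicates, and 8 of 11 blood markers were at least 2-fold lower in the adherent one. The pair thus gives no measure of the spread between like libraries. Of 12222 genes, 0.54% were at least 2-fold higher and 1.77% at least 2-fold lower. This comparison was added after the values were seen.

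**Figure D5:**
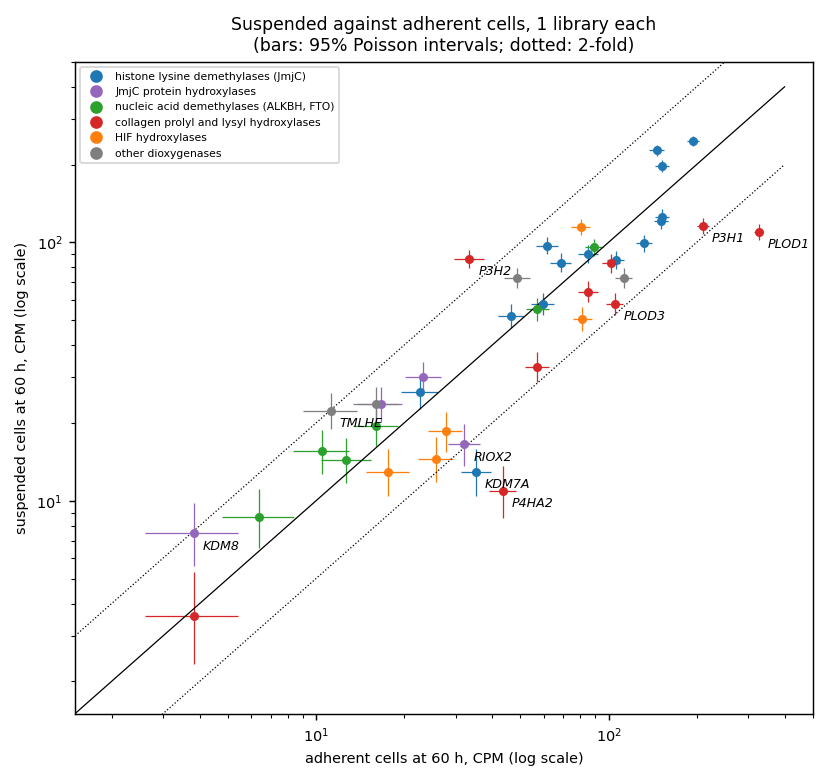
CPM of the 42 genes in suspended (vertical) against adherent cells (horizontal) of the Vc+ condition at 60 h, 1 library each, on log axes. Bars are 95% Poisson intervals and dotted lines mark 2-fold. P3H2 lies above the upper line and P4HA2, PLOD1 and KDM7A below the lower one.

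Between 60 and 96 h, most members were lower in the suspended cells, and none was 2-fold higher. Of 41 members with at least 5 CPM, 6 were at least 2-fold lower, beside 5.54% of 12405 genes higher and 10.5% lower. The median log2 ratio was -0.47 for members and -0.19 for all genes, and 35 members were negative. How many of all genes were negative was not counted. Other lists had medians of -0.36 (further 2-oxoglutarate oxygenases), -0.36 (collagen partners), -0.33 (histone methyltransferases), -0.20 (m6A factors) and 0.95 (blood markers). The members' pattern depends on scaling. With TMM-scaled totals the median of all genes moved to 0.03 and that of members to -0.26. In that scaling 29 members were negative and 3 were 2-fold lower. The genes past 2-fold then split into 937 higher and 960 lower, in place of 687 and 1308.

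EGLN1 stood at 20.4 CPM (17.9 to 23.3) at 96 h and 50.6 CPM (45.4 to 56.2) at 60 h, 2.44-fold lower. P3H2 stood at 35.6 CPM (32.2 to 39.3) against 86.5 CPM, 2.41-fold lower, which brought it near its level in adherent cells. ASPH stood at 33.9 CPM (30.6 to 37.5) against 73.0 CPM (66.8 to 79.7), 2.14-fold lower. The remaining 3 were ALKBH8 (5.88 against 15.5 CPM), P4HA1 (40.4 against 82.9 CPM) and RIOX2 (7.87 against 16.5 CPM). EGLN1 and P3H2 stayed past 2-fold with 5 CPM added to each library and with TMM-scaled totals, ASPH with the former and ALKBH8 with the latter, and P4HA1 and RIOX2 with neither. The widest positive log2 ratios were those of KDM7A (0.77, 22.3 against 12.9 CPM), EGLN3 (0.53, 21.3 against 14.5 CPM) and JMJD6 (0.22, 35.0 against 30.0 CPM). KDM7A and EGLN3 thus had ratios opposite in sign to that of EGLN1. Blood markers summed to 8929 CPM at 96 h, of which the fetal globin HBG2, whose reads can be confused with those of HBG1, made 4715 CPM, against 2613 CPM at 60 h, and endothelial markers to 929 against 2000 CPM. Mitochondrial genes took 9.66% of counts at 96 h against 7.44% at 60 h; the part of cell make-up and of this share was not tested.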

How the data were processed

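RNA was sequenced in 17 libraries of H1-derived cells. Per the labels' protocols, libraries came from total RNA extracted with Trizol (Illumina TruSeq RNA kit). Tools in the submitters' processing notes, listed without their roles, are DESeq 1.18.1, HTSeq 0.6.0, HISAT2 2.0.4 and SAMtools 1.3.1, with the build GRCh38; strand and annotation are not given in the sources used here. The authors deposited whole-number read counts per gene identifier for the 13 libraries of the course and of adherent and suspended cells. For the 4 sorted libraries the authors deposited values read here as TPM: totals are 995020 to 996531, and dividing them by the counts gives ratios that fall with exonic length (log2 slope -0.65 over 10202 genes). Their depth is unknown.

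Symbols were matched to identifiers with GENCODE release 29. Groups follow the titles. Counts were tested with edgeR 4.0.16 in R 4.3.3 (quasi-likelihood F test, TMM, filterByExpr by condition) and TPM with limma 3.58.1 (trend) on log2(TPM + 1), which understates changes of low genes; a gene needed 1 TPM in 2 libraries to be tested. All tests were two-sided, fitted on whole tables, and p-values were adjusted over every tested gene (Benjamini-Hochberg, threshold 0.05). SEs come from the F statistic. The design holds 1 library per condition and time. Pairs of single libraries were compared as log2 ratios with 0.5 CPM added and no test. Fits were checked on simulated data, where the test of the difference in slope recovered few changes of any size put in, and the slope test and the test of the sorted cells few of the smaller ones; the simulation for the sorted cells was revised once, to moderated gene variances and larger changes, after the first version recovered none. Exonic overlap and promoter motifs were read from GENCODE and RefSeq tables.

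Members and lists were chosen with earlier results of these data known. Values are given for members called in any comparison, for the 3 widest differences in each direction (at least 5 CPM or TPM in the higher group), and for the 3 widest ratios of single libraries (at least 20 CPM); of related lists, up to 3 genes with the smallest p are named. Promoters printed, the minimum of 5 CPM for counts past 2-fold and the comparison of the adherent library with the course were chosen after values were seen. Lists covered 5 cell types, collagen partners, HIF targets, m6A factors, histone methyltransferases, flavin-dependent demethylases (of 2, none passed for vitamin C) and further 2-oxoglutarate oxygenases. Alternatives were DESeq2 1.42.0, its size factors, no filter, each library left out, other terms for time, pseudocounts of 0.1 and 5, quantile normalization, the descriptions' groups and a replicate block.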

Additional observations from a re-analysis of the deposited data

Results flagged for a closer look

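P4HA1, the main catalytic subunit of prolyl 4-hydroxylase, stood on opposite sides of its 0 h value after re-plating in the 2 conditions, and this was noticed in the data before it was tested. Without vitamin C it stood at 106 CPM at 0 h and at 74.5 to 82.2 CPM in the 4 later libraries, all lower. With vitamin C it stood at 55.6 CPM at 0 h and at 74.3 to 109 CPM later, all higher. An interaction of later time and condition gave a log2 difference of 1.07 ± 0.28 (edgeR fitted over all genes, adjusted p = 1.00, before adjustment 0.00304), so that the difference failed the correction. In that test no gene of 14773 passed and 527 had an unadjusted p under 0.05, P4HA1 alone among members. In the sorted endothelium P4HA1 stood at 99.0 and 108 TPM without vitamin C and at 53.55 and 103 TPM with it. Each condition has 1 library at 0 h, so the contrast rests on those 2 values.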

How the results depend on the processing

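Directions held in 332 of 338 settings of called members over DESeq2 1.42.0, its size factors, no count filter, other terms for time and each library left out; the 6 exceptions are slopes of the fit from 0 to 60 h, of OGFOD1 (0.0226), RIOX2 (0.0756), ALKBH8 (0.0484), P3H3 (-0.33), KDM5B (-0.17) and KDM4A (-0.0425), which lay between -0.75 and 0.71 from 24 h. For vitamin C over the course, leaving out 1 library gave 2 to 4 members and 485 to 1167 genes, no term for time 0 members and 28 genes, and no count filter 1591 genes in place of 923. For later times against 0 h the left-out ranges were 1 to 8 members and 813 to 3404 genes, and 24 h alone gave 14 members and 4356 of 15250 genes (28.6%). For slopes from 24 to 60 h they were 10 to 15 members and 2989 to 4461 genes. The fit from 0 h gave 1751 genes and 6 members, 4 of them among those called from 24 h. For the difference in slope, DESeq2 called 8 genes, no filter 102, and left-out libraries 0 to 3, with no member. Suspended cells at 96 against 60 h had 3 members past 2-fold with 5 CPM added or TMM-scaled totals, and 1224 genes in place of 1995 with 5 CPM added. In the sorted cells, the descriptions' groups gave 156 genes and turned the sign of 18 of 39 members, left-out libraries 0 to 1, and a replicate block 0 genes and 0 members (1237 genes and 4 members at an unadjusted p under 0.05, in place of 313 and 0). Deviations of libraries with the same replicate number had a correlation of 0.565. This is 1 value, because with 2 libraries per condition the deviations of number 2 mirror those of number 1. The labels do not say that libraries with the same number are pairs. The descriptions' groups split the 4 libraries by the same numbers, so the 2 readings cannot be told apart here. Depth limits low genes most: 1 count is 0.0904 to 0.161 CPM, so that P4HA3 and KDM8 rest on few counts. The cause of these shifts was not tested.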
